A study of Mus musculus with 2 samples.

Results

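A bidirectional promoter is the stretch of DNA between the starts of 2 neighbouring genes that are read in opposite directions, away from each other. In the mouse erythroid cell line G1E, 641 of 25799 accessible chromatin regions (2.48%) lay over such a stretch. The members were found by position alone. Peaks of each replicate were merged, and a region was kept where it shared 1 bp or more with the span between the outermost annotated 5′ ends of 2 protein-coding genes. The gene on the minus strand had to lie on the left, the gene on the plus strand on the right, and the 5′ ends 1000 bp or less apart. In the GENCODE M21 annotation 755 head-to-head pairs met this rule. They held 1489 of the 21938 protein-coding genes, 21 of them in 2 pairs. In each name below the minus-strand gene comes first.

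Both genes of such a pair share 1 open stretch of DNA, on which the transcription machinery can be loaded in either direction. These promoters are usually CpG islands without a TATA box. They are known for housekeeping genes, among them genes of DNA repair, mitochondria, the cell cycle and RNA synthesis, and the genes of the core histones H2A and H2B are a classical case.

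The data came from ATAC-seq, in which a transposase cuts and tags DNA that is not covered by nucleosomes. There was 1 group: G1E cells, a male line of strain C57BL/6J that the labels describe as an erythroid progenitor without Gata1, the gene of the main erythroid GATA factor. It was assayed in 2 biological replicates of 50000 cells each, which both come from 1 donor entry. The replicates gave 21194 and 22620 merged regions, of which 603 and 627 were members, and the labels do not say whether the cultures were separate. Regions at the promoters of 12 of 12 erythroid marker genes were listed in both replicates, and at those of the neuron, hepatocyte, T cell and fibroblast markers none. Only peaks above a reproducibility threshold are listed and the depth behind them is unknown, so a pair without a region had none called and cannot be read as closed. The deposited signal of a peak is given as its value in replicate 1 and replicate 2, and as a percentile among all regions of the same replicate, since the replicates' scales may differ.

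The sequences of 8 spans show what lay under strong members. They are the plus strand of GRCm38.p6 (mm10), from the 5′ end of the minus-strand gene on the left to that of the plus-strand gene on the right, so that each base lies upstream of both genes. Capitals mark matches, on either strand, to the motif strings given further below (an inverted CCAAT core therefore reads ATTGG). Trappc11/Rwdd4a (chr8:47533470-47533664), Rnft2/2410131K14Rik (chr5:118245116-118245227), Erp44/Invs (chr4:48279558-48279760), Tctn3/Entpd1 (chr19:40612233-40612366), Rpa3/Umad1 (chr6:8259173-8259288) and Mmab/Mvk (chr5:114444060-114444269) belong to the strongest members. Among the gene lists used further below, Pms1/Ormdl1 (chr1:53297018-53297095) is the strongest pair of the DNA repair list. Mrps12/Sars2 (chr7:28741820-28741992) is the strongest of the aminoacyl tRNA synthetase list.
Trappc11/Rwdd4a: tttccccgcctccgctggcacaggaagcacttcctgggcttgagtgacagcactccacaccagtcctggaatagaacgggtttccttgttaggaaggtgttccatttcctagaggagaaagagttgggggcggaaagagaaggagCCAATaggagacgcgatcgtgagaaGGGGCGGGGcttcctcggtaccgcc
Rnft2/2410131K14Rik: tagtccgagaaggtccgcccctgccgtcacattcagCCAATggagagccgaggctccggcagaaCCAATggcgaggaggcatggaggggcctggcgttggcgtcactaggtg
Erp44/Invs: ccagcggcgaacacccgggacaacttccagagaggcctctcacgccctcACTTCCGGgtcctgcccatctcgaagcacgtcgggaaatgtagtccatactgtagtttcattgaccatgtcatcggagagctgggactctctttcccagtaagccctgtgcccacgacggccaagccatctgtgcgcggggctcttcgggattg
Tctn3/Entpd1: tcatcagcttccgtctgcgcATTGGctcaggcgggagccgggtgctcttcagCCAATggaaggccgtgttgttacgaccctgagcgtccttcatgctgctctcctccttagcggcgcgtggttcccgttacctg
Rpa3/Umad1: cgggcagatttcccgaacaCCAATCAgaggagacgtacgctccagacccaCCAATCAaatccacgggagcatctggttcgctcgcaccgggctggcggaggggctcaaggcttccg
Mmab/Mvk: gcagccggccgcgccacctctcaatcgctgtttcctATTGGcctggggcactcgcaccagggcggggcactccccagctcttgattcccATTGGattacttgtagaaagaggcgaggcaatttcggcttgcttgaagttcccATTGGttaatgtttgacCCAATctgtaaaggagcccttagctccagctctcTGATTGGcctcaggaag
Pms1/Ormdl1: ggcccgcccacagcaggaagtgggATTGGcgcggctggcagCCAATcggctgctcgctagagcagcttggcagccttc
Mrps12/Sars2: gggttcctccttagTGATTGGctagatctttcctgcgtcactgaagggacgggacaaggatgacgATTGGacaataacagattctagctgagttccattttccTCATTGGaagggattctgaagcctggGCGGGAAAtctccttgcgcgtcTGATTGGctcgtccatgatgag
Of these 8 spans, 7 hold the 5-letter CCAAT core, the sequence that the factor NFY binds. Within 100 bp of the midpoint, 40.9% of all 646 spans with a region held a core. Among the 100 pairs with the highest mean percentile of signal the share was 65.0%. Mmab/Mvk holds 5 copies and Mrps12/Sars2 holds 4. Erp44/Invs holds none, and its capitals mark an ETS match. None of the 8 holds a TATAAA string, which was found in only 3.56% of spans with a region.

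The next 5 spans serve as contrast. Hist1h2ac/Hist1h2bc (chr13:23683948-23684199) had a region in both replicates, while the other histone pair shown, Hist1h2ba/Hist1h2aa (the central 300 bases, chr13:23934159-23934458), had none. Col4a4/Col4a3 (chr1:82586849-82586921), a pair of collagen genes of basement membranes, Rnf151/Rps2 (chr17:24718063-24718116) and Eme2/Mrps34 (chr17:24895087-24895116) also had none.
Hist1h2ac/Hist1h2bc: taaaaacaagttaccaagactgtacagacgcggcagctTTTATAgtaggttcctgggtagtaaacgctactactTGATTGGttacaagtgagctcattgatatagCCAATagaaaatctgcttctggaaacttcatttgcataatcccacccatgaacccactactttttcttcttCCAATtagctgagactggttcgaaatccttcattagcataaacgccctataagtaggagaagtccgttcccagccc
Hist1h2ba/Hist1h2aa: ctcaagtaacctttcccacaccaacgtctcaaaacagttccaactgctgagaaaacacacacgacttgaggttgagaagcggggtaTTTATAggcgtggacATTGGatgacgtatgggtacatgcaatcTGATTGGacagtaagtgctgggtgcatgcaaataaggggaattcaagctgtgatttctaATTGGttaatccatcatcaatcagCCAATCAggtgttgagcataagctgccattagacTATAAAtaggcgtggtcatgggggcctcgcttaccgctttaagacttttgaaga
Col4a4/Col4a3: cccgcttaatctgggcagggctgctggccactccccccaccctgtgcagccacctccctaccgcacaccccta
Rnf151/Rps2: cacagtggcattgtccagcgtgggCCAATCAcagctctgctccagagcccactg
Eme2/Mrps34: tgcttttgttcaggacaccggccgcttccg
Both histone spans hold a TATA match and 3 or 4 CCAAT cores, so these letters did not separate the pair with a region from the pair without. Hist1h2ba and Hist1h2aa encode testis histones. The Col4a4/Col4a3 span is G and C rich (68.5%) but holds only 2 CG dinucleotides, and the Rnf151/Rps2 span holds 1.

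Most head-to-head pairs were accessible in G1E cells. A region overlapped the span of 607 of the 755 pairs (80.4%) in replicate 1 and of 629 (83.3%) in replicate 2, a mean of 81.9% ± 2.06 (SD, n = 2 replicates). The span had a region in both replicates at 590 pairs (78.1%) and in 1 or both at 646 (85.6%). Of the other pairs, 17 had one in replicate 1 only, 39 in replicate 2 only, and 109 had none. As background, 33.8% of all 21938 protein-coding 5′ ends had a region within 250 bp in replicate 1 and 35.6% in replicate 2, 32.4% in both and 37.0% in 1 or both.

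Measured in that same window, the 5′ ends of the 1489 paired genes had a region in 80.0% of cases in replicate 1 and 82.5% in replicate 2. The mean was 81.3% ± 1.80 (SD, n = 2), against 31.3% ± 1.18 for the 20449 genes outside such pairs. The difference of 50 percentage points had an SD of 0.625 between the replicates. With 1 group and 2 libraries no test over samples was possible, and the 2 genes of a pair mostly share 1 region, so genes are not independent here. The median distance in a pair was 129 bp, so the window of a paired gene often also holds its partner's 5′ end. A region in it may belong to the partner, which applies wherever paired genes are set against others. Genes whose 5′ end lay near another start took values in between. The mean was 65.6% for 871 genes whose 5′ ends cross those of an opposite gene by up to 1000 bp, 58.2% for 820 genes opposite a noncoding gene, and 45.4% for 361 genes with a same-strand gene start within that distance. For the 18397 genes with no such neighbour it was 28.2%.

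The paired promoters were richer in CpG than the others. The CpG ratio, the observed over the expected number of CG dinucleotides in 1000 bp around the 5′ end, had a median of 0.775 for paired genes and 0.512 for the others. It was 0.6 or more, the usual mark of a CpG island, for 84.0% of paired genes and 43.2% of the others. Within classes of CpG ratio the paired genes had a region more often from 0.2 upward, although inside the classes quoted below 0.8 their median ratio was slightly the higher (0.538 against 0.507, and 0.728 against 0.707). In the class from 0.4 to 0.6 the means were 67.6% ± 1.29 for 165 paired genes and 30.1% ± 1.12 for 2915 others. From 0.6 to 0.8 they were 86.8% ± 1.78 and 55.1% ± 1.97, and from 0.8 to 1.0 they were 88.1% ± 3.37 and 63.9% ± 2.39 (SD, n = 2 each). Below a ratio of 0.2 few 5′ ends had a listed region in either set: 1 of 30 paired genes had one in 1 or both replicates, and 111 of 4962 others.

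**Figure D1:**
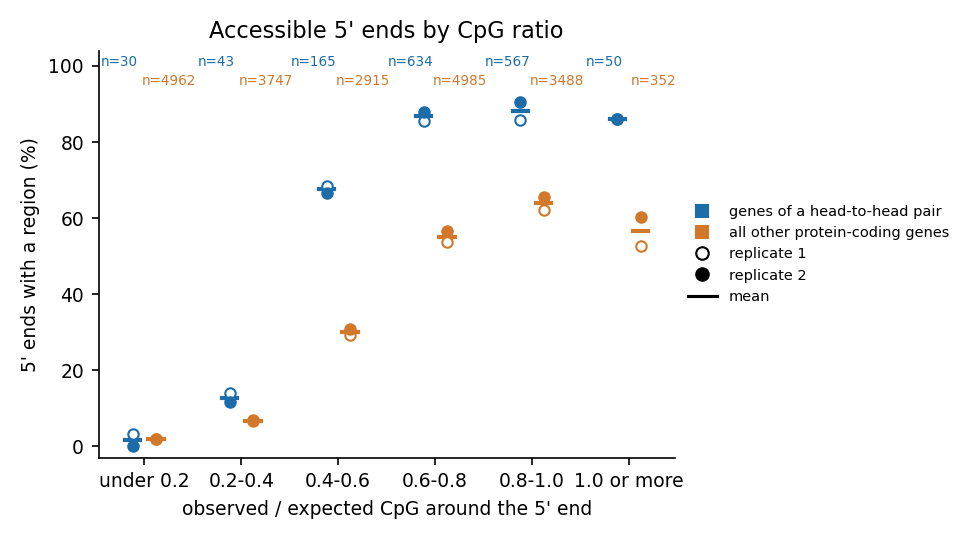
Share of protein-coding 5′ ends with a region within 250 bp (y axis, percent) by class of CpG ratio (x axis), for genes of head-to-head pairs and all other genes. Circles are the 2 replicates, bars their mean, and n the genes of a class; from 0.4 upward the paired genes lie above the others in both replicates.

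The share of pairs with a region was highest above 300 and up to 500 bp between the 5′ ends and lowest beyond. The median distance was 129 bp. At 0 to 100 bp, 78.9% of 313 pairs had a region in replicate 1 and 85.6% in replicate 2, the widest gap between the replicates of any distance class. Above 100 and up to 200 bp the shares were 81.6% and 82.0% of 206 pairs, up to 300 bp 86.0% in both replicates of 100 pairs, and up to 500 bp 90.9% and 87.9% of 66 pairs. Above 500 and up to 1000 bp they were 65.7% and 68.6% of 70 pairs, below every shorter class in each replicate. The 1000 bp limit itself marked no step: 15 of the 20 pairs just inside it (759 to 987 bp) and 15 of the 20 just outside it (1007 to 1199 bp) had a region.

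In close pairs 1 region mostly covered both starts, and in distant pairs mostly 1 start. Where a pair had a region, 1 region covered both 5′ ends at 578 of 646 pairs (89.5%), and a separate region lay on each end at 14. Another 28 pairs had a region on the minus-strand end only and 26 on the plus-strand end only, and no region lay between the ends without touching either. Up to 100 bp all 275 pairs with a region had both ends under 1 region with the replicates joined, and 245 of 247 in replicate 1 alone. The median distance there was 57 bp, so a region of usual width that touches the span nearly has to cover both ends. Such geometry also shapes the counts over all pairs, since members were chosen for overlapping the span. Above 500 bp 1 region covered both ends at 13 of 70 pairs, while 7 had a region at each end, 18 at the minus-strand end only, 12 at the plus-strand end only and 20 none. The median width of a joined region was 618 bp for pairs up to 100 bp apart, 718 bp for those above 300 and up to 500 bp, and 523 bp for those above 500 bp.

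**Figure D2:**
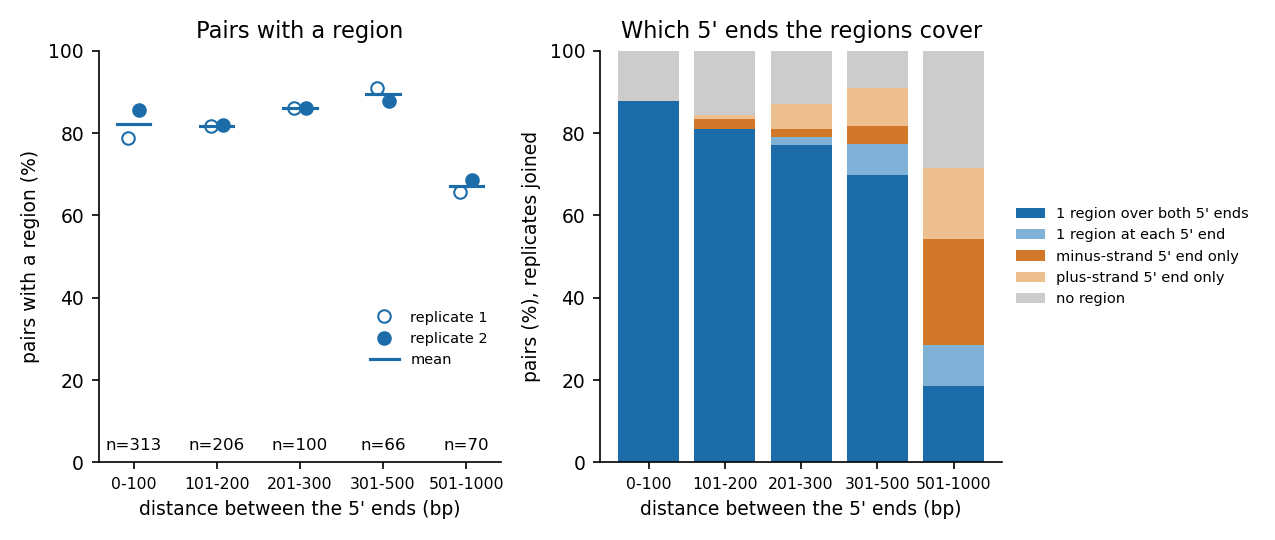
Left, share of pairs with a region (y axis, percent) by distance between the 5′ ends (x axis, bp), with circles for the replicates, a bar for their mean and n for the pairs. Right, the same pairs with the replicates joined, split by which 5′ ends the regions cover; 1 region over both ends is the commonest state up to 500 bp and holds for 13 of 70 pairs beyond.

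The 14 pairs with a separate region at each end lay 243 to 987 bp apart. Btf3l4/Txndc12 was the longest such span, with 5′ ends 987 bp apart at chr4:108833614-108834601, and the stronger of its regions had signals of 8.54 and 11.4. Cep170/Sdccag8, a pair of centrosome genes 593 bp apart, had 12.8 and 11.7. Urod/Hectd3 is the case most tied to red cells, as Urod encodes an enzyme of heme synthesis. Its ends are 904 bp apart (chr4:116994413-116995317), and its 1 region (chr4:116994288-116994714) covered the Urod end only, with signals of 9.71 and 9.84.

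At the other extreme the 5′ ends of Nsa2/Gfm2 fall on the same base (chr13:97137937), and those of Bag4/Lsm1 and Slc7a6os/Prmt7 are 1 bp apart. Gfm2 encodes a mitochondrial ribosome recycling factor, and the Nsa2/Gfm2 region had signals of 14.7 and 14.9. Bag4/Lsm1 had 13.1 and 14.4, and Slc7a6os/Prmt7 8.57 and 8.11. The widest member was at Kdelc1/Bivm (1789 bp, signals 12.6 and 12.6), followed by Fiz1/Gm44973 (1330 bp) and Brca1/Nbr1 (1319 bp).

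The strongest summit, the base of highest signal, lay between the 5′ ends at 358 of 607 pairs (59.0%) in replicate 1 and 391 of 629 (62.2%) in replicate 2. The remaining summits were split evenly over both sides, 20.8% and 19.4% on the minus-strand gene and 20.3% and 18.4% on the plus-strand gene. Over all pairs summits sat near the middle: the median offset from the midpoint was 1.50 bp and -1 bp, and its median size 52.5 bp and 46.0 bp. Members were chosen for overlapping the span, which in itself keeps summits near it. In 299 pairs of replicate 1 the summit was nearer the minus-strand end and in 307 nearer the plus-strand end. The even split was not found in each distance class. Above 200 and up to 300 bp, 33 summits of replicate 1 were nearer the minus-strand end and 53 nearer the plus-strand end, and in replicate 2 the counts were 38 and 48. Above 500 bp they were 28 and 18, and 30 and 18, with a signed median offset of -175 bp and -186 bp. There the median size of the offset was 287 bp in replicate 1, so that summits sat by an end rather than in the middle. The replicates placed the strongest summit a median of 15.0 bp apart, and within 50 bp at 506 of 590 pairs (85.8%). At 34 pairs they differed by over 200 bp.

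**Figure D3:**
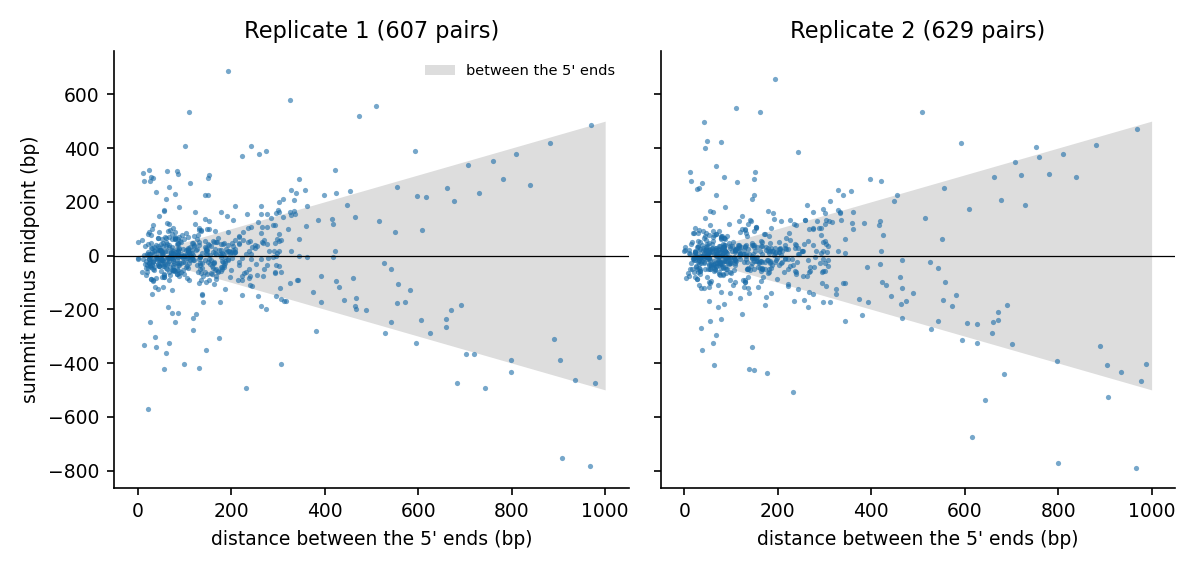
Position of the strongest summit of each pair relative to the midpoint of its span (y axis, bp, negative towards the minus-strand gene) by the distance between the 5′ ends (x axis, bp), 1 point per pair and 1 panel per replicate. The grey wedge is the space between the 5′ ends; points gather at the midline up to about 300 bp and follow the edges of the wedge beyond 500 bp.

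Brca1/Nbr1, a textbook pair whose first gene encodes the BRCA1 repair protein, was an exception in position. Its span is chr11:101551955-101552149, and a region of 1319 bp covered both ends with signals of 10.8 and 11.2. The strongest summit lay 786 bases from the left end of the span in replicate 1 and 756 in replicate 2, past the outermost Nbr1 start and inside that gene. The span itself holds 1 CCAAT core in its 195 bases.
Brca1/Nbr1: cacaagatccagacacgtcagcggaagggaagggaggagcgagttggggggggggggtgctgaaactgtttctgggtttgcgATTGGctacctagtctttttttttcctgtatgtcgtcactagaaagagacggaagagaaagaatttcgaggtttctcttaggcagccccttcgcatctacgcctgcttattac

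Member regions were strong, wide and reproducible. Their median signal was 11.2 in replicate 1 and 12.4 in replicate 2. This corresponds to a median percentile of 75.6 and 76.2 of all regions, against 59.9 and 61.3 for other promoter regions. These are the 8993 and 9498 regions, not members, within 1000 bp of any annotated transcript start of a protein-coding gene. Members had to reach the span itself, while other promoter regions could lie up to 1000 bp from a start, internal starts included. The 2 classes therefore differ in nearness to a start wherever they are compared. For distal regions it was 41.9 and 41.6. The difference to other promoter regions was 15.3 percentile points ± 0.575 (SD, n = 2). Above percentile 75 of signal were 50.9% and 51.7% of members and 33.9% and 35.1% of other promoter regions. Median widths were 540 and 553 bp against 445 and 463 bp. More than 1 deposited summit was found in 40.6% and 41.1% of members and in 25.8% and 26.6% of other promoter regions.

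The difference in signal was also seen within classes of CpG ratio above 0.4. At a ratio of 0.6 to 0.8 in 300 bp around the summit, the median percentile was 79.4 and 82.8 for members and 66.8 and 68.9 for other promoter regions. At 0.8 to 1.0 it was 77.0 and 76.5 against 66.1 and 67.8. The gap was smallest at a ratio of 1.0 or more, with 64.9 and 64.4 against 58.1 and 60.5.

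Of the 641 members, 589 (91.9%) were listed in both replicates, compared with 78.0% of other promoter regions and 59.0% of distal regions. The 15 members of replicate 1 alone had a median percentile of 21.8 and the 37 of replicate 2 alone 17.3. The members found in both stood at 75.5 and 77.1, so the unshared ones were weak. The deposited lenient list of the other replicate held 11 of the 15 and 17 of the 37. Across the 589 shared members the 2 signals had a Spearman correlation of 0.852, as a description across regions, and across 7949 other promoter regions 0.870.

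The strongest members by mean percentile belonged to genes of many kinds. Trappc11/Rwdd4a led replicate 1 with a signal of 25.4 and had 21.8 in replicate 2. Trappc11 encodes a subunit of a vesicle tethering complex. Rnft2/2410131K14Rik had 21.4 and 23.1, and its summits lay at bases 38 and 35 of the span, beside the first of its 2 CCAAT cores. Erp44/Invs, which pairs an endoplasmic reticulum protein with the cilium protein inversin, had 19.8 and 21.1. Its summits, at bases 150 and 152, fell about 100 bases to the right of the ETS match.

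Rpa3 encodes a subunit of the single-strand DNA binding protein RPA. It shares its promoter with Umad1 and with the predicted gene Gm45062, so that 1 region with signals of 19.4 and 20.9 served 2 pairs, as 19 members did in all. Tepsin/Ndufaf8, of which the latter encodes an assembly factor of respiratory complex I, had 18.4 and 21.6. Tctn3/Entpd1 had 19 and 19.5. Tctn3 encodes a protein of the ciliary transition zone, and Entpd1 the cell surface nucleotidase CD39.

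The other pairs among the 10 strongest were Zfp654/Cggbp1 (19.9 and 19), Mmab/Mvk (18.2 and 19.6), Ccdc146/Fam185a (17.7 and 20.1) and 6030458C11Rik/Drosha (18.6 and 19.2). Mmab encodes a cobalamin enzyme and Mvk mevalonate kinase of sterol synthesis. Drosha encodes the nuclease that cuts miRNA precursors in the nucleus. The lowest signal of these 4 pairs was 17.7, where the median member had 11.2 and 12.4. The lowest percentile among the 10 strongest was 98.0, for Zfp654/Cggbp1 in replicate 2.

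Motif strings were searched on both strands in the 200 bp around each strongest summit. NFY, which binds the CCAAT core, was searched as that core followed by CA or by GA. The ETS factor string was CCGGAAGT, that of NRF1 GCATGCGC, of YY1 AAGATGGCG, of SP1 GGGGCGGGG and of CREB TGACGTCA. The E-box string, read by bHLH factors, was CACGTG. The ZNF143 string was ACTACAA. The TATA box was searched as TATAAA. The AP-1 string was TGANTCA, with N for any base. E2F was TTTCCCGC, TTTGGCGC, TTTCGCGC or TTTGCCGC, and the GATA string was GATA with A or T before it and A or G after it. CTCF was searched by a longer pattern. The bare CCAAT core was added after the data were seen, and each NFY match also counts as a CCAAT core. A match is a description of the letters, not a bound site.

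NFY and ETS matches were commoner in members than in other promoter regions. An NFY match was present in 25.2% of members in replicate 1 and 24.6% in replicate 2, against 15.4% and 15.2% of other promoter regions and 5.92% and 5.94% of distal regions. Of all 21938 protein-coding 5′ ends, 9.36% held one in a window of the same length. The CCAAT core was present in 47.4% and 46.4% of members and 36.6% and 35.9% of other promoter regions, with 28.1% of all 5′ ends. ETS matches were at 12.8% and 12% against 7.88% and 8.11% (4.33% of all 5′ ends). The differences exceeded the gap between the replicates for all 3. Smaller differences in the same direction were found for ZNF143, with 6.14% and 6.54% against 4.20% and 3.90% (2.29% of all 5′ ends), and for YY1, with 4.31% and 3.83% against 2.24% and 2.58% (1.81%). For CREB they were 4.81% and 4.47% against 3.15% and 3.37% (2.01%), and for E2F 3.98% and 4.94% against 2.95% and 2.85% (2.06%).

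NRF1 matches were in 5.64% and 5.10% of members against 4.10% and 4.19% (2.69%).

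The remaining motifs were not commoner in members in both replicates. SP1 matches were in 15.6% and 16.9% of members and 15.9% and 16.4% of other promoter regions (12% of all 5′ ends), and E-boxes in 7.96% and 8.29% against 8.51% and 8.26% (5.66%). GATA strings, which were in 65.0% and 63.0% of distal regions, were in 8.62% and 7.5% of members and 17.6% and 17.3% of other promoter regions (16.1% of all 5′ ends). TATAAA was found in 1.99% and 2.39% of members against 2.87% and 2.78% of other promoter regions (8.07% of all 5′ ends). For AP-1 the shares were 2.16% and 1.91% against 3.86% and 4.25% (4.09%), and for CTCF 1.82% and 2.23% against 3.06% and 3.45% (1.68%).

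**Figure D4:**
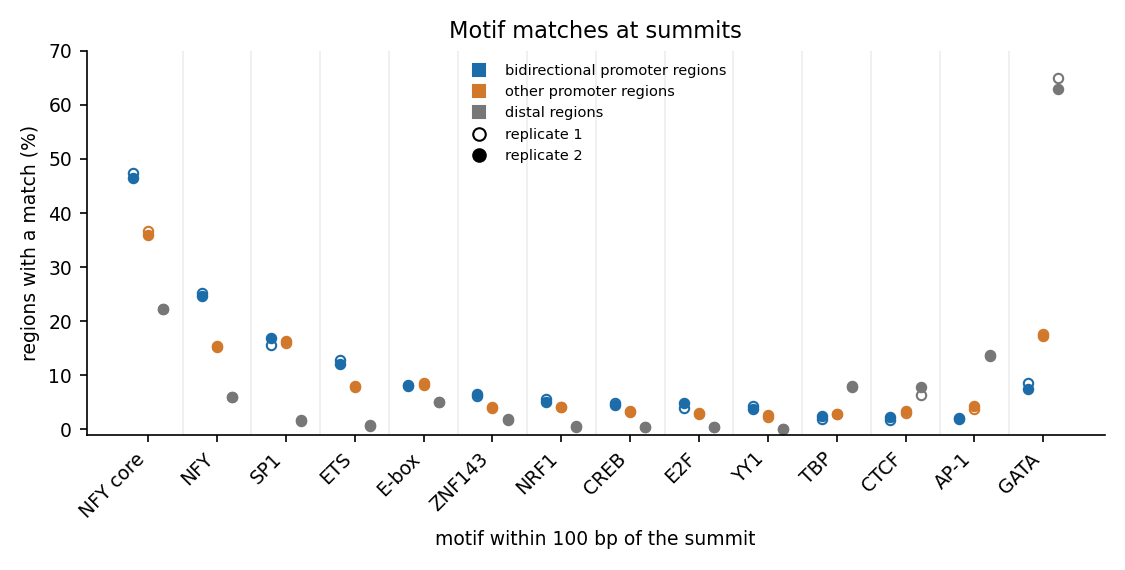
Share of regions with a match (y axis, percent) for 14 motifs (x axis) within 100 bp of the strongest summit, in bidirectional promoter regions, other promoter regions and distal regions, with 1 circle per replicate. NFY core is the 5-letter CCAAT string and TBP the TATA string; GATA strings mark distal regions and are least frequent in the members.

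Among CpG-rich regions the differences were smaller for NFY, ETS, ZNF143, YY1, CREB, E2F, NRF1 and GATA and larger for SP1. Among regions with a ratio of 0.6 or more, NFY matches were in 24.1% and 24.3% of members and 16.7% and 16.2% of other promoter regions. The ETS shares were 13.8% and 12.8% against 10.2% and 10.4%, those of NRF1 6.16% and 5.48% against 5.50% and 5.61%, and those of GATA 7.07% and 6.68% against 9.59% and 9.34%. SP1 matches, about equal over all regions, were in 16.5% and 17.1% of these members and 19.4% and 19.9% of these other promoter regions.

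Members with an NFY match had higher signals. Their median percentile was 84.0 in replicate 1 and 85.3 in replicate 2, compared with 71.6 and 72.7 for members without. The percentile was higher with more CCAAT cores in the window. With none (317 and 336 members) the median was 66.9 and 66.5, with 1 core 79.2 and 81.7, with 2 cores 86.2 and 88.6, and with 3 or more (50 and 51 members) 89.9 and 91.3. The order was the same in both replicates. Other promoter regions gave 51.1 and 52.6 with no core and 87.5 and 90.6 with 3 or more, so the relation was not restricted to head-to-head pairs, and it was present at a CpG ratio of 0.6 or more (66.9 and 66.3 against 90.9 and 93.1 in members).

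**Figure D5:**
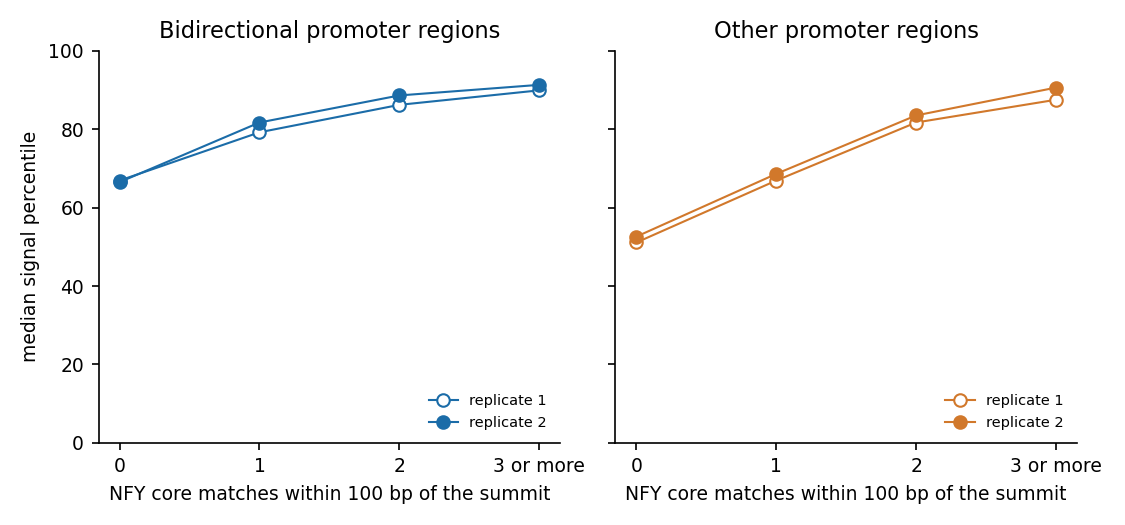
Median signal percentile (y axis) of regions by the number of CCAAT cores within 100 bp of the summit (x axis), for bidirectional promoter regions and other promoter regions, 1 line per replicate. The medians of members go from 66.9 and 66.5 with no core to 89.9 and 91.3 with 3 or more.

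The spans showed the same. Within 100 bp of the midpoint, 43 of the 100 pairs with the highest mean percentile held 2 or more CCAAT cores, and 8 of the 100 with the lowest. Among the other motifs ZNF143 and, by less, GATA went with a higher median in both replicates, and several went with a lower one. Members with a ZNF143 match (37 and 41) had a median percentile of 84.7 and 82.5 against 74.9 and 76.1 without. For GATA (52 and 47 members) it was 75.8 and 78.8 against 75.6 and 76.0. The ETS values were 75 and 73.3 with a match and 75.6 and 76.6 without. For YY1 they were 65.9 and 71.7 against 76.5 and 76.3, and for TATAAA, in 12 and 15 members, 64.2 and 56.3 against 75.9 and 76.5. NRF1 gave 67.6 and 69.3 against 76.5 and 76.3, SP1 70 and 71.1 against 77.1 and 76.8, the E-box 69.2 and 72.8 against 75.9 and 76.4, and E2F 71 and 69.9 against 75.9 and 76.5.

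Motifs took different places relative to the starts. In the span and 100 bp on either side of it, at 646 pairs with a region, 197 of 236 NFY matches (83.5%) lay between the 5′ ends, at a median of 38.0 bp upstream of the nearer end. For SP1 it was 181 of 244 (74.2%), at a median of 21 bp upstream. ETS matches were centred on the starts, 58 of 118 (49.2%) between the ends with a median position of 0.5 bp. YY1 matches lay inside the genes: 5 of 52 (9.62%) were between the ends, and the median was 30.5 bp downstream of the nearer end. These positions refer to the outermost annotated start, which need not be the one used in G1E cells.

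Genes of shared function were followed through lists made by gene symbol. Such a list can hold genes of other functions and miss some genes of its own, so each count refers to the list. The list of RNA polymerase and general transcription factor genes takes in genes with a Med symbol and leaves out Polr2l. All 24 of its pairs had a region in 1 or both replicates, and 22 in both. All 11 with a DNA replication gene, all 8 with a proteasome gene and all 5 with an aminoacyl tRNA synthetase had one too, against 646 of 755 pairs (85.6%). In both replicates the counts were 11, 6 and 5, against 590 of all pairs (78.1%). Lists of 11, 8 and 5 pairs are too small to set apart from these shares. Among the RNA polymerase and general transcription factor pairs Dzank1/Polr3f, which holds a subunit gene of RNA polymerase III, was the strongest (16.8 and 17.5). Mcm4/Prkdc, which joins a replicative helicase gene to that of a DNA repair kinase, had 13.9 and 12.4 over a span of 466 bp. Among proteasome pairs Psmd10/Atg4a led with 12.8 and 15.6. Mrps12/Sars2, mitochondrial on both sides with a ribosomal protein and the seryl tRNA synthetase, had 13.5 and 19.4.

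Listed DNA repair genes were in 26 pairs, of which 23 had a region. Pms1/Ormdl1, with a mismatch repair gene, had signals of 18.1 and 19.5, and Atm/Npat, which joins the gene of the DNA damage kinase ATM to a regulator of histone transcription, 11.6 and 14.7. The median of the mean percentile over repair pairs was 85.0, against 77.3 over all pairs. The centrosome and cilium list, which takes in every gene with a Ttc symbol whatever its function and leaves out Invs, had a region at 27 of 29 pairs. Genes of the respiratory chain had one at 18 of 19, mitochondrial ribosomal proteins at 16 of 18 and Zfp zinc finger genes at 16 of 18. Chaperone genes had one at 12 of 15, with Hspa14/Cdnf the strongest at 16.4 and 16.1. Cytosolic ribosomal proteins had one at 6 of 8, led by Rps27/Rab13 at 9.76 and 13.9.

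Histone genes held 14 pairs, 27 of the 67 listed genes, and in 13 pairs both genes were histones. A region was found at 13 pairs in each replicate. Their median percentile of 63.4 was below the 77.3 of all pairs, and the strongest, Hist1h2ac/Hist1h2bc, had 12.1 and 12.9. Histone genes are near-identical copies, and reads that fit several copies may have been placed differently from reads of unique sequence. The effect of this on their signal was not tested.

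Few pairs held a gene of the erythroid, receptor, protocadherin or type IV collagen lists. Of 47 erythroid genes 2 (4.26%) were in one, Urod/Hectd3 above and Gm49661/Prdx2. This count is too small to set apart from the 6.79% of all protein-coding genes. Prdx2 encodes a peroxiredoxin abundant in red cells. Its pair had no region in the span, but a region lay within 250 bp of another annotated start of 1 of the genes. Of 1464 olfactory and vomeronasal receptor genes 1 was paired (Nt5c3/Vmn1r4, 7.56 and 8.76), and its partner Nt5c3 encodes a nucleotidase. Of 69 protocadherin genes 1 was paired, and of 6 type IV collagen genes 2 (33.3%) formed 1 pair. Neither pair had a region.

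The 109 pairs without a region differed from the 646 with one in CpG content. Their median CpG ratio in 300 bp around the midpoint was 0.690, against 0.863, while G and C made up a median of 61.7% against 62.7%. A ratio under 0.4 was found for 35 of the 109 (32.1%) and 17 of the 646 (2.63%). A predicted gene was part of 21 pairs without a region (19.3%) and 57 with one (8.82%), and the genes had a median of 4.0 against 5.0 annotated transcripts. The median distance was similar, 142 bp and 127.0 bp, but 20 of the 109 and 50 of the 646 were above 500 bp. Of all pairs, those with a ratio below 0.2 had a median distance of 363 bp, and those from 0.2 to 0.4 one of 491.5 bp. The CpG ratio and the motifs below were read around the midpoint, which in long spans lies away from both starts. The contrasts in CpG content and motifs are therefore mixed with distance.

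Not all of the 109 lacked signal. The lenient list of 1 or both replicates held a region at 26 of them, and of both at 13. Those 26 had a median CpG ratio of 0.992, none had a ratio under 0.4, and their median distance was 78.0 bp. A region within 250 bp of another annotated start of either gene was present for 31. For 57 of the 109 (52.3%), no list held a region at any annotated start. Col4a4/Col4a3, Hist1h2ba/Hist1h2aa and Eme2/Mrps34 are among the latter, and so is Zfyve28/Cfap99, whose CpG ratio was 1.02. Rnf151/Rps2, Grik5/Zfp574 and Sirt1/Dnajc12 had a region at another start. Their spans had CpG ratios of 0.146, 0.257 and 0.336.

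Spans with a region held ETS, NRF1 and NFY matches more often. An ETS match within 100 bp of the midpoint was present in 76 of 646 (11.8%) with a region and 2 of 109 (1.83%) without, and an NRF1 match in 43 (6.66%) and 1 (0.917%). NFY matches were in 137 (21.2%) and 13 (11.9%). SP1 matches were in 116 (18.0%) and 16 (14.7%), and at a CpG ratio of 0.6 or more in 19.6% and 18.8%. E2F matches were in 4.33% and 4.59%, and TATAAA in 3.56% and 3.67%. None of the 6 motifs ETS, NRF1, YY1, NFY, CREB and SP1 was found in 47.4% of spans with a region and 70.6% without. At a CpG ratio of 0.6 or more these shares were 44.5% of 577 and 65.6% of 64, and ETS matches were in 76 and 1 of them.

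A further 445 pairs, not members of the set, had 5′ ends that cross by 1 to 1000 bp, so that the genes overlap at their starts. Of these 323 (72.6%) had a region over the shared stretch in replicate 1, 336 (75.5%) in replicate 2, and 346 in 1 or both. Several known pairs are of this kind in the outermost annotation. Hspd1/Hspe1, the mitochondrial chaperonin genes, had signals of 12.4 and 13.3. The Ppat/Paics region, at genes of purine synthesis, had 11.0 and 9.24, that of Psmb9/Tap1, at genes of antigen presentation, 9.72 and 13.0, and Surf1/Surf2 had 7.42 and 7.93. Sirt3/Psmd13 had 13.2 and 10.3. Col4a1/Col4a2 had no region in any list, like Col4a4/Col4a3 in the main set. The strongest summit lay in the shared stretch at 24.1% and 22.6% of crossing pairs with a region, against 59.0% and 62.2% of the main pairs.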

How the data were processed

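ATAC-seq of G1E cells was used as narrow peak lists of each of 2 replicates in mm10 coordinates, per the labels. The signal of each peak was deposited by the authors, and neither its formula nor the aligner and peak caller are given in the sources used here. The file notes describe the lists as derived from alignments and a further file of unstated content. The lists that passed an irreproducibility threshold (26083 and 27810 peaks) were the main data, and the pseudoreplicated lists (40301 and 44751 peaks) the lenient ones. Overlapping or touching peaks were merged, with the highest signal and its summit kept. Regions of both replicates that overlap were joined. Percentiles were mid-ranks within a replicate.

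Genes and outermost 5′ ends came from GENCODE M21 and sequence from GRCm38.p6, whose chromosomes hold all peaks. Overlap meant 1 bp or more. Computation used Python 3.11.15 and matplotlib 3.10.9, and the overlap steps were tested on simulated data. Depth is unknown, and SDs (n = 2) measure the spread between these libraries only, which may be technical. Pairs, lists and motifs were chosen with earlier results of these data known. Named pairs are the 10 with the highest mean percentile, textbook pairs, the strongest pair of each gene list and the first in the alphabet without a region, the 3 shortest and 3 longest spans, the 3 widest members and pairs with erythroid genes. Lists over both replicates and signal tracks were not used here, and some named pairs are not reported here.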

Additional observations from a re-analysis of the deposited data

How the results depend on the processing

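The share of pairs with a region (81.9%) was 86.4% with the lenient lists, 65.6% with the stronger 50% of regions, 50.1% when the summit had to lie in the span and 79.0% with crossing pairs added. The paired minus other difference (50 points) was 51.1, 42.4, 43.9 and 45.7 under the same settings, 52.6 for pairs up to 500 bp apart, 48.8 without predicted genes, 50.7 with a window of 1000 bp and, chosen after seeing the data, 47.6 at any annotated start. Members in both replicates (91.9%, exact 95% Clopper-Pearson interval 89.5% to 93.9% for counting error) were 93.9% with the lenient lists, 86.4% with the stronger regions and 95% with the summit in the span. The median percentile (75.9) was 84.4, 65.5, 79.7 and 73.1 under those settings in the first order, and 77.4 up to 500 bp. With the lenient lists and the stronger regions it was ranked anew within those lists, so 84.4 and 65.5 are on other scales than 75.9. Of all deposited summits 47.8% lay between the 5′ ends, against 60.6% of the strongest. The NFY difference to other promoter regions (9.58 points) was 6.93 in 100 bp, 10.9 in 400 bp and, chosen after seeing the data, 7.76 at a CpG ratio of 0.6 or more. Of the 44 alternatives run, only those on a difference (paired minus other, distance or NFY) could reverse in sign, and none did. The shares and the median percentile cannot change sign. The causes were not tested. Leaving out a replicate gave ranges of 80.4% to 83.3%, 49.5 to 50.4 points, 75.6 to 76.2, 59.0% to 62.2%, 9.40 to 9.76 points and, for pairs above 500 bp minus those up to 100 bp, -17.1 to -13.2 points (main value -15.1). It gave no share of members in both replicates. Crossing and closer pairs, predicted genes and the summit rule change which pairs count, and unlisted weak regions limit each share.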

Other observations

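GATA strings were rare in the members, and 36 pairs held one within 100 bp of the strongest summit in both replicates. The strongest of them were Sclt1/D3Ertd751e, with signals of 17.7 and 18.1, and Npc2/Isca2, with 16.4 and 19.4, where 2 strings were found. Npc2 encodes a cholesterol transfer protein of the lysosome and Isca2 a protein of mitochondrial iron-sulfur cluster assembly. These pairs were named after their values were seen.

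Chromosome X held 20 head-to-head pairs, of which 12 had a region in 1 or both replicates, while 646 of all 755 pairs had one. Among 78 pairs with a predicted gene 57 had a region, 70.5% in replicate 1 and 71.8% in replicate 2, against 81.5% and 84.6% of 677 pairs of named genes.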
